A study of Pomacea canaliculata with 34 samples.

Results

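The comparison described here is Stage 9 against Stage 8 in embryos of the apple snail Pomacea canaliculata. It rests on 8 libraries of the 34 in the series, chosen by their stage labels, with 4 at Stage 8 and 4 at Stage 9. The series covers Stage 2 to Stage 10 and the hatchling, each of Stage 2 to Stage 7 having 3 libraries and every later point 4. Each library held polyadenylated RNA of whole animals, extracted with Trizol from embryos taken out of the egg. No treatment, strain or age in days is given in the labels, nor whether a library held 1 embryo or a pool. Nothing says that libraries of a stage came from separate clutches, so a p-value speaks of library-to-library spread alone, and that spread may be technical.

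Apple snails are freshwater gastropods that lay clutches of eggs above the water line. The embryo lives on the fluid inside the egg and hatches as a small crawling snail, with no free-swimming larva. Late embryonic stages of such snails are the period in which organs take on their juvenile form, including the shell, the gut and a camera-type eye with a single lens. In bulk RNA of whole animals, fewer cells of a type and less RNA per cell cannot be told apart. The genes carry only LOC identifiers, for which no product names were at hand. Levels and changes are therefore described by gene and by group without functions, and the labelled tissue was not checked against marker genes.

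A Stage 8 library held between 13392123 and 51823625 reads assigned to genes, and a Stage 9 library from 17466424 to 41110722 at Stage 9. All 8 libraries were closest to a library of their own stage. Spearman correlations over 17441 genes were 0.987 to 0.990 within Stage 8, 0.984 to 0.990 within Stage 9 and 0.964 to 0.980 between them. Genes are not independent replicates in these values.

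The 8 libraries were placed on a line that they do not define, from the mean log2 CPM of Stage 7 at 0 to that of Stage 10 at 1. CPM stands for read counts scaled to library size and composition (TMM). The ends of the line differed in depth, with 16734475 to 19149946 reads per library at Stage 7 and 27995708 to 88674538 at Stage 10. Positions were not recomputed at equal depth. The Stage 8 libraries lay at 0.506, 0.570, 0.487 and 0.609 (replicates 1 to 4), about the middle of the line. The Stage 9 libraries lay at 0.924, 0.940, 0.959 and 0.941, near its Stage 10 end. The groups did not overlap. The means were 0.543 ± 0.0570 and 0.941 ± 0.0143 (SD, n = 4 each), and the two-sided exact permutation test gave p = 0.0286, the smallest that 4 against 4 libraries allow. The Stage 10 libraries, which set the end of the line, lay between 0.962 and 1.06. Stage 8 libraries were thus spread over a wider stretch than Stage 9 libraries, with replicates 2 and 4 farther along than replicates 1 and 3.

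More genes were read at Stage 9 at equal depth. With each library thinned to 13392123 reads, 14923, 15232, 14931 and 15173 genes had 10 reads or more at Stage 8 and 15612, 15606, 15555 and 15508 at Stage 9. Every Stage 9 library was above every Stage 8 library, with a difference of 505.5 genes between means (exact permutation test, two-sided p = 0.0286). With a minimum of 1 read the difference was 300.8 genes and the exact p was 0.114. The 10 most abundant genes took 6.20% ± 0.290 of the reads at Stage 8 and 7.69% ± 0.845 at Stage 9 (SD, n = 4 each), a difference that did not pass the exact permutation test (two-sided p = 0.0571).

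**Figure D1:**
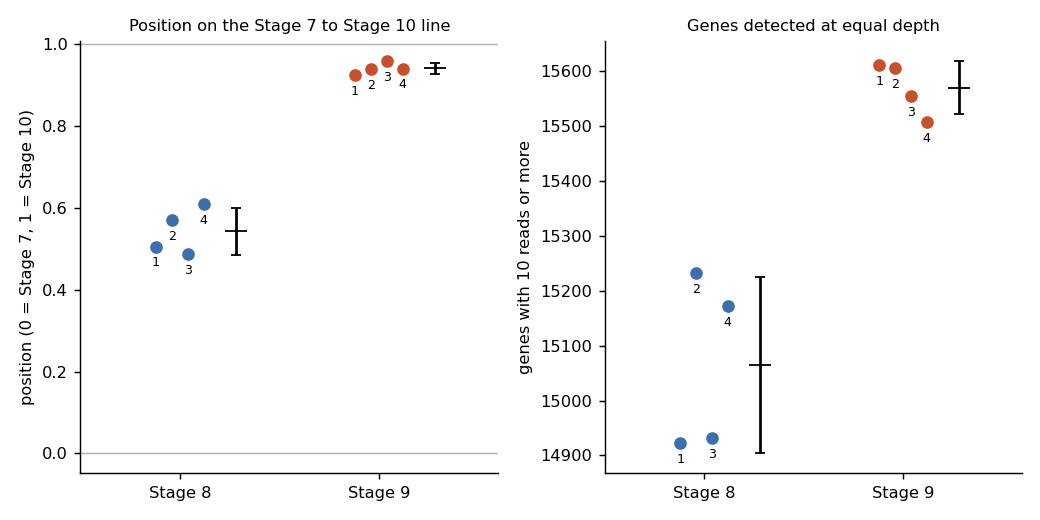
Left, position of each Stage 8 and Stage 9 library on the line from the mean of Stage 7 (0) to that of Stage 10 (1); right, genes with 10 reads or more after thinning to 13392123 reads. Points are libraries with their replicate number and bars give the mean and SD (n = 4); in both panels every Stage 9 library lies above every Stage 8 library.

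Of 17441 genes tested with edgeR's quasi-likelihood test, 3942 differed between Stage 9 and Stage 8 at a Benjamini-Hochberg adjusted p under 0.05, or 22.6%. Of these, 2169 genes rose (12.4% of those tested) and 1773 fell (10.2%). The rises and falls differed in size. Among the genes that rose, 1115 (51.4%) did so by 2-fold or more and 591 by 4-fold or more. Of the rising genes 21 had 0 reads at Stage 8, and with their folds taken against a floor of 3 reads over that stage these counts were 1114 and 585. Among those that fell, 1619 (91.3%) fell by less than 1.5-fold, 70 (3.95%) fell by 2-fold or more and 13 by 4-fold or more. The 2-fold sets are 6.39% and 0.401% of the genes tested. The median log2 fold change was 1.05 for the genes that rose, -0.28 for those that fell and 0.00 over all tested genes.

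The excess of rises among the calls (55.0%) depended on the scaling: with library totals alone 45.7% of the calls rose, and 62.6% with RLE size factors. Under the same 2 scalings 1093 and 1157 genes rose by 2-fold or more, and 81 and 66 fell. A test against a 2-fold minimum called 468 genes higher (2.68%) and 5 lower (0.0287%). Without replicate 1 of Stage 8 the number of falls was 1169 in place of 1773. In 1850 of the 2169 rising genes and 1435 of the 1773 falling genes the CPM values of the 8 libraries did not overlap between stages, against 29.0% of all tested genes; the same libraries made the calls.

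**Figure D2:**
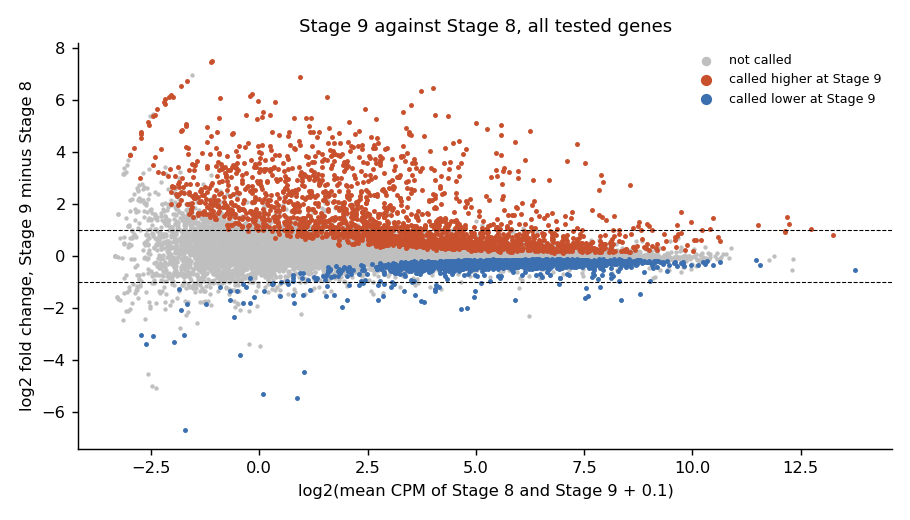
Log2 fold change of Stage 9 against Stage 8 (vertical) by log2 of the mean CPM of both stages plus 0.1 (horizontal) for the 17441 tested genes, with dashed lines at 2-fold. The 2169 called rises reach large folds at low levels, while the 1773 called falls lie mostly at higher levels and under 1.5-fold.

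The genes of the step were then read in libraries that the step does not use. Stage 10 against Stage 7 shares no library with it, although all comparisons share 1 estimate of the spread. There, 10686 genes passed the test (61.3%), with 32.4% of all tested genes higher and 28.9% lower at Stage 10. Of the 2169 genes that rose from Stage 8 to Stage 9, 1933 (89.1%) were also higher at Stage 10 than at Stage 7, 18 were lower and 218 did not pass the test, with a median log2 fold change of 2.06. These 1933 genes made up 34.2% of all genes higher in that comparison. Of the 1773 genes that fell, 1546 (87.2%) were lower, 23 higher and 204 did not pass, with a median of -0.65, and they made up 30.7% of all genes lower in it. Of the 70 genes that fell by 2-fold or more, 38 (54.3%) were lower in that comparison.

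The same genes were also read in an earlier and a later step, neither of which adjoins the step that chose them. The steps directly before and directly after it were not tested. From Stage 6 to Stage 7 30.4% of all tested genes changed, and from Stage 10 to the hatchling 36.2%. In the first of these steps, 36.8% of the rising genes rose, against 16.4% of all tested genes, and 54.3% of the falling genes fell, against 14.1%. Most of the rising genes, 1286 of 2169, did not pass the test in that step. From Stage 10 to the hatchling, 59.0% of the rising genes rose again, against 16.9% of all tested genes, and 0.876% fell. Of the falling genes, 78.1% fell again in the hatchling, against 19.3%, and 0.733% rose. Of the 1115 genes that rose by 2-fold or more, 24.3% had risen from Stage 6 to Stage 7, with a median log2 fold change of 0.92, and 71.3% rose again in the hatchling, with a median of 1.74. These shares were not tested against each other.

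Levels at the other 8 stages place the sets in development. The 2-fold rising genes had a median of 0.0428 CPM at Stage 2, 0.0766 at Stage 5 and 0.207 at Stage 7, then 4.30 at Stage 10 and 15.7 in the hatchling. Most of them were thus close to 0 CPM before Stage 8. All 2169 rising genes together had a higher median at Stage 7, 2.29 CPM. The 1773 falling genes had medians of 91.6 CPM at Stage 2, 83.5 at Stage 5 and 66.8 at Stage 7. Their medians were 42.3 CPM at Stage 10 and 33.8 in the hatchling, a slow decline from a high start. The 70 genes that fell by 2-fold or more had another course, with medians of 1.44 CPM at Stage 2, 6.57 at Stage 6 and 4.07 at Stage 8. Over all tested genes the median was 10.0 CPM at Stage 2 and 18.2 in the hatchling. With Stage 8 and Stage 9 set aside, the highest stage mean fell in the hatchling for 93.5% of the 2-fold rising genes, against 34.8% of all tested genes. The filter on low counts keeps some low genes only through a later stage, so part of this late share was built in. For the falling genes the highest stage mean fell at Stage 2 in 41.3%, at Stage 3 in 22.2% and at Stage 4 in 16.1%, against 22.8%, 9.34% and 5.65% of all tested genes.

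**Figure D3:**
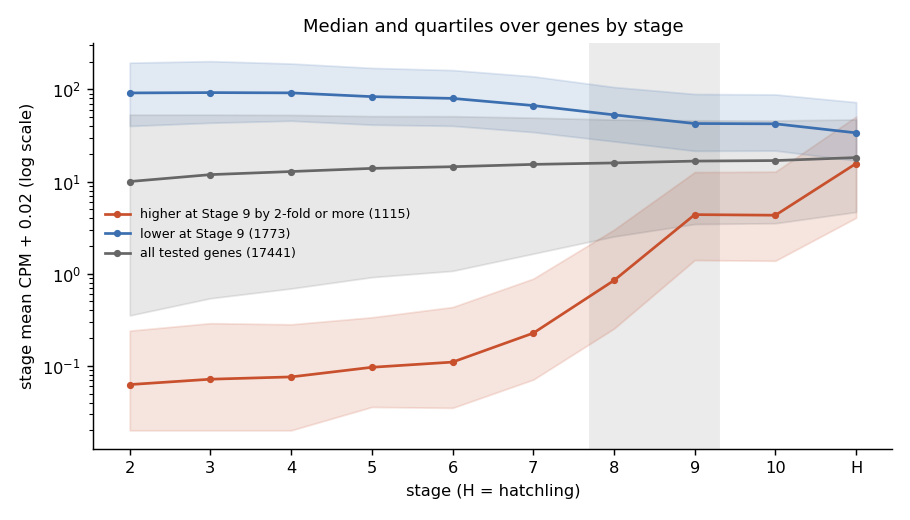
Median (line) and quartiles (band) over genes of the stage mean CPM plus 0.02, on a log axis, by stage for the 1115 genes higher at Stage 9 by 2-fold or more, the 1773 genes lower at Stage 9 and all 17441 tested genes. Grey marks Stage 8 and Stage 9, which chose the sets; outside it the rising genes climb from 0.207 CPM at Stage 7 to 15.7 in the hatchling and the falling genes decline from 66.8 to 33.8.

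Genes were also grouped by Stage 2 to Stage 7 alone. Of 6444 genes with a read that stayed under 1 CPM at all 6 of these stages, 3094 passed the filter on low counts. Many passed only through a later stage, so a share of rises above the rest was built in. Of these 3094, 848 (27.4%) rose at Stage 9 and 11 (0.356%) fell, and they held 73.0% of all genes that rose by 2-fold or more, against 17.7% of all tested genes. A second group of 2598 genes peaked at Stage 2, 3 or 4 at 2-fold or more above Stage 7. In that group 115 (4.43%) rose at Stage 9 and 496 (19.1%) fell, and without replicate 1 of Stage 8 the share of falls was 11.6%. Among the remaining 11749 genes 1206 rose (10.3%) and 1266 fell (10.8%), close to the 12.4% and 10.2% of all tested genes.

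The share of all reads held by the called genes also shifted. The 2169 rising genes took 10.7% ± 0.642 of the reads at Stage 8 and 18.2% ± 0.869 at Stage 9, and the 1773 falling genes 21.3% ± 0.618 and 16.7% ± 0.228 (SD, n = 4 each). These genes were chosen on the same values, so the shares are a description. The 1115 genes that rose by 2-fold or more, although low one by one, went from 2.44% ± 0.359 of the reads to 6.38% ± 0.544. The 5 genes with the largest rise in CPM took 2.18% of the reads at Stage 8 and 4.40% at Stage 9, with log2 fold changes of 0.81 or more and no overlap between stages.

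The most abundant genes of both stages were singled out after their values were seen. LOC112575079 had 7679, 6945, 6396 and 7322 CPM in the Stage 8 libraries, against 9874, 12740, 14330 and 12600 CPM in those of Stage 9. It was the most abundant gene of Stage 9, and its libraries did not overlap between stages (log2 fold change 0.81, SE 0.168, edgeR adjusted p = 0.000949). LOC112561353 was the most abundant gene of Stage 8, at 16960, 14910, 17520 and 16240 CPM, and stood at 7401, 11320, 14250 and 12510 CPM at Stage 9. All 4 Stage 9 values lay below those of Stage 8. Its log2 fold change was -0.53 (SE 0.183, edgeR adjusted p = 0.037), a call lost with RLE size factors (adjusted p = 0.0501), with the replicate block in the 2 stages alone (adjusted p = 0.0584), against a 2-fold minimum (adjusted p = 1.0) and when replicate 1, 3 or 4 of Stage 8 or replicate 1 or 2 of Stage 9 was left out (adjusted p = 0.0771, 0.0805, 0.0525, 0.14 and 0.0668). Its lowest adjusted p over 18 alternatives was 0.00544. Its Stage 7 mean was 6245 ± 767 CPM (n = 3) and its hatchling mean 6867 ± 598 CPM (n = 4), so Stage 8 held its highest stage mean.

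No gene was wholly silent at one stage and well read at the other. Of genes with 0 reads among the 107023494 of Stage 8, none reached 10 CPM throughout Stage 9, and none met the converse rule among the 112660464 reads of Stage 9. With a wider rule chosen after the data were examined, 4 genes lay under 1 CPM in all Stage 8 libraries and reached 10 CPM in each library of Stage 9, and 0 lay the other way. All 4 were higher at Stage 10 than at Stage 7 and higher in the hatchling than at Stage 10 (edgeR adjusted p under the threshold), with a median of 284 CPM in the hatchling. Of all tested genes, 32.4% and 16.9% were higher in these comparisons, and of the 1115 genes that rose by 2-fold or more 91.6% and 71.3%. LOC112565813, described below, was among the 4 genes.

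Single genes are named only where the higher stage reached 10 CPM and the lower had 10 reads or more, and genes outside that rule had larger fitted folds in both directions. Under it, LOC112565814 had the largest rise. Its Stage 8 libraries held 0.0777, 1.76, 0.0507 and 0.176 CPM and its Stage 9 libraries 37.9, 20.3, 47.3 and 20.9 CPM. Replicate 2 stood above the other Stage 8 libraries, with 26 of the 39 reads of that stage, and the lowest Stage 9 library was still far above it. The log2 fold change was 6.48 (SE 0.564, edgeR adjusted p = 5.8e-09) and 7.93 without that replicate. Before Stage 8 the gene had at most 2 reads in all at any stage. It stood at 36.0 ± 21.9 CPM at Stage 10 and 459 ± 40.2 CPM in the hatchling (n = 4 each), a second rise of 3.67 in log2 (SE 0.37, edgeR adjusted p = 4.21e-08).

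LOC112565813 was next among the rises that met the rule. The Stage 8 values were 0.350, 0.541, 0.203 and 0.264 CPM, and the Stage 9 values 24.5, 27.1, 31.6 and 20.3 CPM. Every Stage 8 library was near the floor of detection, with 4 to 15 reads, and the stages did not overlap. The log2 fold change was 6.36 (SE 0.391, edgeR adjusted p = 1.84e-11). Its levels were 31.4 ± 13.9 CPM at Stage 10 and 567 ± 131 CPM in the hatchling (n = 4 each), with a log2 fold change between them of 4.17 (SE 0.256, edgeR adjusted p = 2.1e-11).

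LOC112555657 had the largest fall under the same rule. Its Stage 8 libraries held 69.1, 19.9, 56.7 and 15.8 CPM and its Stage 9 libraries 6.83, 11.7, 7.36 and 13.5 CPM. Replicates 1 and 3 of Stage 8 were high and replicates 2 and 4 low, with the lowest of them just above the highest Stage 9 library. The log2 fold change was -2.03 (SE 0.49, edgeR adjusted p = 0.0036). Over 18 alternatives the adjusted p ran from 0.000522 to 0.158, and the call was lost with limma-voom (adjusted p = 0.0791), with the replicate block in the 2 stages alone (adjusted p = 0.0858) and against a 2-fold minimum (adjusted p = 0.158). The gene was at 168 ± 85.0 CPM at Stage 4 (n = 3) and 56.3 ± 29.1 CPM at Stage 7 (n = 3). Its mean was 9.86 ± 3.28 CPM at Stage 9 and higher, 21.0 ± 11.9 CPM, at Stage 10 (n = 4 each), a difference that was not tested. The gene fell to 1.06 ± 0.353 CPM in the hatchling (n = 4, log2 fold change -4.27 against Stage 10, SE 0.581, edgeR adjusted p = 2.28e-06).

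LOC112577381 was next among the falls that met the rule. The Stage 8 values were 63.5, 29.1, 63.6 and 21.5 CPM, and the Stage 9 values 10.5, 7.28, 10.3 and 16.0 CPM. Replicates 1 and 3 of Stage 8 were again above replicates 2 and 4, and the stages did not overlap. The log2 fold change was -1.99 (SE 0.323, edgeR adjusted p = 5.43e-05). The gene had its highest mean at Stage 6, 111 ± 9.47 CPM (n = 3), against 0.0215 ± 0.0373 CPM at Stage 2 (n = 3) and 3.41 ± 0.247 CPM in the hatchling (n = 4).

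**Figure D4:**
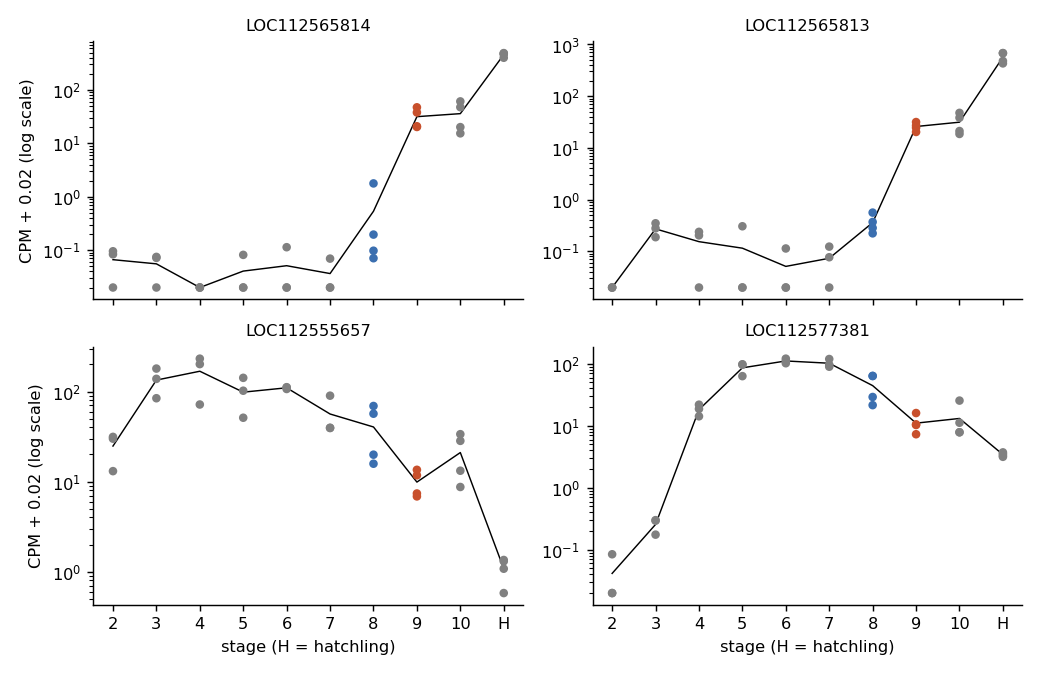
CPM plus 0.02 on a log axis by stage for the 2 largest rises (top) and the 2 largest falls (bottom) among genes that met the naming rule; points are libraries, blue at Stage 8 and orange at Stage 9, and lines join stage means. The top genes rise from near 0 CPM at Stage 8 to Stage 9 and reach 459 and 567 CPM in the hatchling, and the bottom genes show a wide Stage 8 spread.

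The order of Stage 8 libraries seen in the falls was looked for over the larger sets. Among the 1115 genes that rose by 2-fold or more, replicate 4 was the highest Stage 8 library for 47.6% of the genes and replicate 2 for 25.7%, against 16.7% for replicate 1 and 9.96% for replicate 3. Among the 1773 falling genes replicate 1 was highest for 48.1% and replicate 3 for 27.6%, and replicate 4 for 7.56%. Replicates 2 and 4, which lay farther along the line to Stage 10, were thus nearer to Stage 9 in both of these sets. By the highest library, the 70 genes that fell by 2-fold or more did not show this order for replicate 2. There replicate 2 was highest for 32.9%, replicate 3 for 31.4%, replicate 1 for 24.3% and replicate 4 for 11.4%. By the lowest library they did: replicate 4 was lowest for 37.1%, replicate 2 for 27.1%, replicate 3 for 18.6% and replicate 1 for 17.1%. Replicates 2 and 4 are also the library of fewest and the library of most reads at Stage 8. The part of depth in this order was not tested.

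Rising genes lay next to each other on the linkage groups. Neighbours were taken in the order of protein-coding genes on the linkage groups of the reference assembly ASM307304v1, with other gene types left out. Of the 1115 genes that rose by 2-fold or more, 505 (45.3%) had at least 1 direct neighbour in the same set. Among the 17422 tested genes with a place in that order the share was 9.85%. The 505 genes formed 185 runs of 2 or more neighbours, 14 of them with 5 genes or more. Of the 70 genes that fell by 2-fold or more, 11 (15.7%) had a falling neighbour, against 0.643% of tested genes, and 7 of the 11 formed a single run. Genes in tandem are often copies of each other, and how reads that match several copies were counted is not given in the sources used here. Levels of single genes within a run are therefore uncertain, and spans overlapped in 31 of the 328 neighbour pairs within runs.

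Rising genes in runs differed in level and course from those without a rising neighbour, by values that were not tested. The 505 genes in runs had a median log2 fold change of 2.68 from Stage 8 to Stage 9 and the 610 others 1.73, or 2.63 and 1.72 with genes at 0 reads set to that floor. From Stage 10 to the hatchling, 78.4% of the genes in runs rose and 65.4% of the others, against 16.9% of all tested genes. The median level in the hatchling was 19.9 CPM for the genes in runs and 12.6 CPM for the others.

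The longest run held 12 neighbouring genes, all of which rose, with log2 fold changes of 3.19 to 5.05 and a median of 3.93. Together they stood at 13.4, 22.3, 6.55 and 28.1 CPM in the Stage 8 libraries and at 282, 391, 516 and 386 CPM in the Stage 9 libraries. The Stage 8 libraries differed widely but stayed far below every Stage 9 library. Without replicate 4 of Stage 8 the median log2 fold change was 4.68. The summed level was 0.221 ± 0.149 CPM at Stage 7 (n = 3), 376 ± 92.4 CPM at Stage 10 and 2742 ± 649 CPM in the hatchling (n = 4 each). All 12 genes were higher at Stage 10 than at Stage 7 and in the hatchling than at Stage 10 (edgeR adjusted p under the threshold). Among all 1115 genes that rose by 2-fold or more these shares were 91.6% and 71.3%, and among all tested genes 32.4% and 16.9%.

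A run of 10 genes rose at lower levels, with log2 fold changes of 1.46 to 5.09. Summed over the run, the Stage 8 libraries held 3.19, 3.11, 3.91 and 8.02 CPM, and those of Stage 9 held 31.6, 19.9, 25.8 and 17.2 CPM. Replicate 4 stood above the other Stage 8 libraries, and the median log2 fold change of 2.21 was 2.97 without it. The summed mean was 23.6 ± 6.39 CPM at Stage 9, 20.8 ± 7.32 CPM at Stage 10 and 152 ± 59.6 CPM in the hatchling (n = 4 each). Most of the hatchling sum came from members at 49.8, 45.4 and 38.4 CPM, and every other member was at 4.08 CPM or less. Those high members had higher means at Stage 10 than at Stage 9, and every other member had a lower one. These differences between members were not tested.

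LOC112565814 and LOC112565813 were direct neighbours in a run of 6 rising genes. All 6 had log2 fold changes of 3.75 or more, with a median of 6.29, which was 5.43 with limma-voom and 5.56 with libraries thinned to equal depth. One member had 0 reads at Stage 8, and with its fold taken against a floor of 3 reads over that stage the median was 6.19. The sum over its genes was 0.622, 2.84, 0.254 and 0.581 CPM in the Stage 8 libraries and 69.95, 51.2, 86.7 and 45.6 CPM in those of Stage 9. The sum thus left the range near 0 CPM at this step, mostly through LOC112565814 and LOC112565813, with Stage 9 means of 31.6 and 25.9 CPM. The other members were still low at Stage 9, at 0.733, 1.57, 1.5 and 2.09 CPM. The summed level had a mean of 78.6 ± 40.9 CPM at Stage 10 and 1160 ± 235 CPM in the hatchling (n = 4 each). All 6 genes were higher in the hatchling than at Stage 10, against 71.3% of the 2-fold rising genes and 16.9% of all tested genes.

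LOC112555657 belonged to the single long run of falling genes, 7 neighbours with log2 fold changes of -2.03 to -1.51. Their summed level was 1285, 1049, 1535 and 1053 CPM in the libraries of Stage 8 and 366, 417, 372 and 417 CPM in those of Stage 9. No library of one stage reached the level of the other. The run was read from the start, at 179 ± 42.0 CPM at Stage 2, and was highest on average at Stage 6, at 3059 ± 84.9 CPM (n = 3 each). The Stage 9 mean was 393 ± 27.9 CPM, the Stage 10 mean 599 ± 153 CPM and the hatchling mean 21.0 ± 8.81 CPM (n = 4 each). The sum was thus higher on average at Stage 10 than at Stage 9, a difference that was not tested. Of its 7 genes, 5 were lower at Stage 10 than at Stage 7, and all 7 were lower in the hatchling than at Stage 10. Among the 70 genes that fell by 2-fold or more these shares were 54.3% and 38.6%, and among all tested genes 28.9% and 19.3%.

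**Figure D5:**
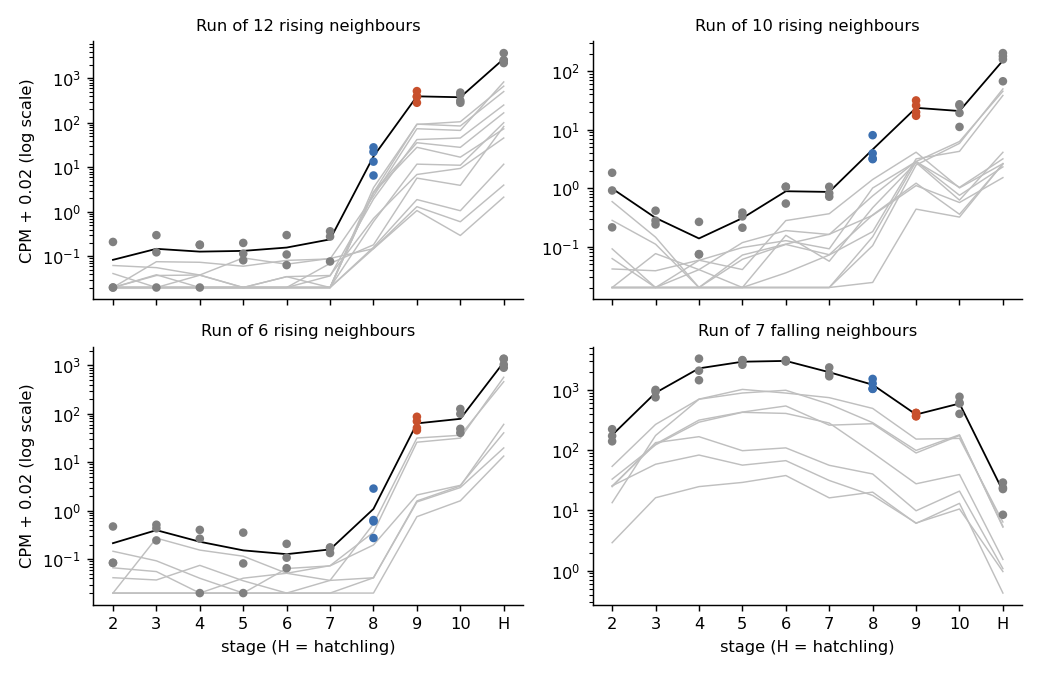
CPM plus 0.02 on a log axis by stage for 4 runs of neighbouring genes; points are the summed CPM of the run in each library (blue Stage 8, orange Stage 9), the black line joins stage means of the sum and grey lines are stage means of single genes. The sums of the rising runs of 12, 10 and 6 genes rise from near 0 CPM between Stage 7 and Stage 9, while some single members stay low. The sum of the falling run of 7 genes peaks at 3059 CPM at Stage 6.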

How the data were processed

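The authors deposited 1 table of raw read counts for 21131 genes and 34 libraries. Reads were processed with STAR, per the submitters' processing notes. Of the STAR version, counter, strandedness, build and handling of multi-mapped reads, none is stated in the labels. All 21131 identifiers matched a symbol in the table of assembly ASM307304v1, which was used only for gene order. No 2 libraries of a stage agreed within sampling noise (chi-square per gene 12.9 to 43.8 over 12 pairs).

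Counts were tested with edgeR 4.0.16 in R 4.3.3 (filterByExpr with minimum count 10, TMM, 1 coefficient per stage over all 34 libraries, 24 residual degrees of freedom). Of the genes, 17441 were tested and 3690 filtered out. Adjustment was by Benjamini-Hochberg over all tested genes. The SE of an edgeR log2 fold change was its absolute value divided by the square root of the quasi-likelihood F statistic. Single values were compared by exact permutation (SciPy 1.17.1). Alternatives used limma 3.58.1, DESeq2 1.42.0 and other settings, and the tests were tried on simulated data.

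The comparison and its rules were chosen with earlier results of these data known. With no product names, the naming rule allowed 2 rising and 2 falling genes: called, 10 CPM or more in the higher stage, 10 reads or more in the lower, no overlap, largest fold. Stage 7 against Stage 6, the hatchling against Stage 10, the most abundant genes, the order of the Stage 8 libraries and the choice of 4 runs were added after the data were examined. Gene lists by product or protein pattern were not used here.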

Additional observations from a re-analysis of the deposited data

Results flagged for a closer look

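In 26 sets of 4 libraries (6 genes, 4 runs and 3 measures of whole libraries, at each stage) 3 had 1 library far from the other 3. For independent, normally spread values chance flags about 1 in 20. Values near 0 CPM and sets that share genes do not meet that condition, so the rate here is not known. LOC112565814 stood at 1.76 CPM in replicate 2 of Stage 8, against 0.0507 to 0.176 CPM in the others. The run of 6 genes that holds it stood at 2.84 CPM in the same library, against 0.254 to 0.622 CPM. That sum includes the 1.76 CPM of LOC112565814, so the 2 flags are not separate. The run's median log2 fold change of 6.29 was 6.82 without that library. The run of 10 rising genes stood at 8.02 CPM in replicate 4 of Stage 8, against 3.11 to 3.91 CPM.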

How the results depend on the processing

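Of 440 values recomputed under the alternatives, no fold change or difference between stages changed sign, but the share of calls that were higher went from 55.0% to 45.7% with library totals, which leaves more falls than rises. Against a 2-fold minimum the test called 473 genes, 468 higher and 5 lower (98.9% higher), and 2422 genes for Stage 10 against Stage 7. The number of falls ran from 1169 to 1792 when 1 library was left out. Without 1 library the difference in position ran from 0.379 to 0.420 and that in detected genes from 458 to 561, and 3 against 4 libraries cannot give an exact two-sided p under 0.0571. The difference in detected genes was 669 with no thinning (exact p = 0.171) and 300.8 with a minimum of 1 read, and the 50 most abundant genes took 1.88 percentage points more reads at Stage 9 (exact p = 0.0286). With the replicate block in the fit of both stages alone, 1034 genes fell, 40 of them by 2-fold or more, and 2936 were called. With the block in the fit of all libraries 3749 were called. Replicate numbers are shared by label only: deviations of same-numbered libraries correlated at -0.088 to 0.048, and 0 of 8 libraries correlated best with their own number. Gene lists could not be recomputed because none could be applied. Depth limits the rising genes at Stage 8, where LOC112565814 rests on 39 reads.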

Other observations

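A few genes of the step went against their direction elsewhere. Of the 2169 genes that rose at Stage 9, 18 (0.83%) were lower at Stage 10 than at Stage 7, against 28.9% of all tested genes. From Stage 6 to Stage 7, 84 (3.87%) fell, against 14.1%. With Stage 8 and Stage 9 set aside, 74 of the rising genes (3.41%) had their highest stage mean at Stage 2, against 22.8% of all tested genes. Of the 1773 falling genes, 23 (1.3%) were higher at Stage 10 than at Stage 7, against 32.4%. Among the other stages, 29 falling genes (1.64%) had their highest stage mean at Stage 10, against 12.4%. Each share was thus below that of all tested genes.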
